A study of Mus musculus with 18 samples.

Results

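The chemokine receptor genes Ccr1, Ccr2, Ccr6, Ccrl2, Cx3cr1, Cxcr3, Cxcr4, Cxcr6 and Cmklr1 were followed through the maturation of lung macrophages after inhaled lipopolysaccharide (LPS). The members were the rows of the count table that carry these 9 symbols, out of 21254 genes, and all 9 were among the 15811 genes with enough counts to be tested. RNA was sequenced from sorted lung populations of mice on a C57BL/6 background, killed 24 h after nebulization for 15 min of 12.5 mg Pseudomonas aeruginosa LPS in 5 ml. Monocyte-derived macrophages (moMs) were sorted as CD45+CD11b+MHC-II-Ly6C+ cells, transitional interstitial macrophages (tnsIMs) as MHC-II+Ly6C+ cells and mature interstitial macrophages (matIMs) as MHC-II+Ly6C- cells of the same CD45+CD11b+ gate. The study's methods place these cells in the CD11c- fraction with granulocytes gated out, and gate dendritic cells apart among CD11c+ cells. Each population came from WT and from Ezr-KOm mice, with 3 libraries per population and genotype. Ezr-KOm mice combine floxed Ezr, the gene of the membrane and actin linker ezrin, with Cre recombinase expressed from Cx3cr1, and the WT mice carry the same Cre without floxed Ezr. All groups thus received LPS and carry the Cre insertion in Cx3cr1, which is 1 of the 9 members. The study's methods name 3 mice per genotype but the labels do not tie libraries to mice, so libraries of different populations may come from the same mouse.

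Chemokine receptors are membrane proteins with 7 helices that signal through Gi proteins and steer leukocytes along gradients of small secreted ligands. Ccr2 and its ligand Ccl2 are known for releasing inflammatory monocytes from the bone marrow and drawing them into tissue, and Cx3cr1, the receptor of membrane-bound fractalkine (Cx3cl1), is known for monocyte survival and patrolling. Ccrl2 is an atypical receptor that binds chemerin without classical signalling and presents it to Cmklr1, the signalling chemerin receptor. Ccr6 binds a single chemokine, Ccl20, and is best known on B cells, Th17 cells and dendritic cells.

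Promoter letters of 4 members are shown because these genes moved in different directions during maturation, and because 1 window of Ccr6, 1 of Ccrl2 and that of Ccr1 hold a match to the NF-kappaB motif, the binding motif of a main transcription factor downstream of LPS. Each stretch is the 250 bases before a RefSeq start of the GRCm38.p6 tables, found once in GRCm39 and given there in the direction of the gene. Capitals mark the letters that match the NF-kappaB motif on either strand, and overlapping matches are merged. Ccr6 has 2 listed starts and Ccrl2 has 3, and for both the window with the match was chosen. The other Ccr6 window and the other 2 Ccrl2 windows hold none. The Ccr6 start shown lies inside the deposited gene, at chr17:8461108-8461357 on the plus strand. Ccrl2 is shown at chr9:110886587-110886836 on the minus strand, Ccr1 at chr9:123768730-123768979 on the minus strand and Ccr2 at chr9:123901970-123902219 on the plus strand. The deposited Ccr2 gene starts at 123901987, so most of the Ccr2 window lies inside it too.
Ccr6: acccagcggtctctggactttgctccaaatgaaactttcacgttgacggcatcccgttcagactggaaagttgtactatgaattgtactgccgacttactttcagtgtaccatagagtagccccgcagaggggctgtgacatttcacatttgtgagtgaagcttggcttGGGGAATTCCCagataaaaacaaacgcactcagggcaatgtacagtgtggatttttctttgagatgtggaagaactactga
Ccrl2: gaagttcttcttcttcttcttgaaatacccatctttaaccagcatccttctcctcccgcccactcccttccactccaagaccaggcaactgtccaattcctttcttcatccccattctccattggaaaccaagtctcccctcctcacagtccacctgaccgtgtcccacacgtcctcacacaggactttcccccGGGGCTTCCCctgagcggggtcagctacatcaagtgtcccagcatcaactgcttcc
Ccr1: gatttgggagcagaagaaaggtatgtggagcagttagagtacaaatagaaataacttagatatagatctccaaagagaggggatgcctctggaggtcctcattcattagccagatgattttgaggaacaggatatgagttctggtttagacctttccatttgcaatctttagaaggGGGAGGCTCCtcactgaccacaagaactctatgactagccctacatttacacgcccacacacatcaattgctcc
Ccr2: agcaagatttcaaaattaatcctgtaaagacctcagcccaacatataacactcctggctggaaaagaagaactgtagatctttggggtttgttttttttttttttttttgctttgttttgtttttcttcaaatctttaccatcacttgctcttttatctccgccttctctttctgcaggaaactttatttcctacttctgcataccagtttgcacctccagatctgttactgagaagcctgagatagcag

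The match began 81 bases before the start in Ccr6, 56 bases before it in Ccrl2 and 74 bases before it in Ccr1, and the window of Ccr2 held none. The NF-kappaB motif was present in 7.25% of the 32851 listed windows of the same length. Among the other motifs searched on both strands, GGAAGT (ETS) occurred in the first Ccr6 window and in Cxcr3 and in 19.7% of all windows, and TATAAA occurred in Cxcr4 and in 12.4% of all windows. TGANTCA (AP-1), TTNNGCAA (CEBP) and the interferon response motif occurred in no window of the members, against 6.75%, 9.56% and 2.98% of all windows. These matches describe letters and say nothing of binding.

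The places of the members on GRCm39 matter for reading some of their counts. Ccr1 (chr9:123762161-123768729), Ccr2 (chr9:123901987-123913594) and Cxcr6 (chr9:123635540-123640825) share a receptor cluster with Xcr1, Ccr3 and Ccr1l1. Cxcr6 lies within Fyco1 on the opposite strand, whose highest count was 912 against 118 for Cxcr6. Cxcr6 counts are therefore uncertain if strand was not used. Cx3cr1 (chr9:119730682-119898945) is listed with a span that also covers Csrnp1 on the same strand, whose highest count was 38675. A later annotation gives Cx3cr1 the span 119877749 to 119898945, without Csrnp1. Ccrl2 lies at chr9:110883554-110886587 and Ccr6 at chr17:8454875-8475973, 1.4 Mb from the end of Ezr. Cxcr4 lies at chr1:128515936-128520030, Cmklr1 at chr5:113750415-113788487 and Cxcr3 at chrX:100775141-100777875.

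Libraries held 16512783 to 48460995 counts, the highest in replicate 2 of Ezr-KOm tnsIMs. Levels are given as CPM, counts scaled to the same library total with TMM factors between 0.931 and 1.07. Ezr was at 497 to 741 CPM in WT libraries and at 93.9 to 282 CPM in Ezr-KOm libraries, without overlap, so transcript remained in every Ezr-KOm library. The sort was read in WT cells from 7 genes, Ly6c1, Ly6c2, H2-Aa, H2-Ab1, H2-Eb1, Cd74 and Ciita. In matIMs against moMs 5 were higher and 2 lower, among the latter Ly6c2 (log2 fold change -3.23). In tnsIMs against moMs 6 were higher and 1, Ly6c2, was lower, although tnsIMs were sorted as Ly6C+. Of 8 macrophage and monocyte markers, 6 were lower in WT matIMs than in moMs and 0 were higher, among them Lyz2 (-1.83) and Cd14 (-1.33). Over all genes tested, 13.4% were called higher and 11.4% lower in this contrast, by the test given below. Of 8 interstitial macrophage markers, 4 were higher (C1qa, C1qb, C1qc and Mrc1) and 1 was lower (Lyve1). In WT cells, 9 dendritic cell markers summed to 112 to 183 CPM in moMs and 243 to 495 CPM in tnsIMs, against 4160 to 5950 CPM in matIMs. All 9 were higher in WT matIMs than in moMs, so markers of dendritic cells moved with maturation, and so did markers of B cells, endothelial cells and fibroblasts, given with the results that they accompany. The sum of 8 alveolar macrophage markers went from 5230 to 6530 CPM in WT moMs to 469 to 613 CPM in WT matIMs, with Chil3 lower and the other 7 higher. That of 9 neutrophil markers went from 780 to 875 CPM to 258 to 325 CPM, with 3 higher and 2 lower. In bulk RNA, fewer cells of a type and less RNA per cell cannot be told apart.

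Ccrl2 was the most abundant member in every group. Per kilobase of exon, its mean level in WT moMs was 715 ± 41.8 CPM (SD, n = 3). Ccr1 followed at 243 ± 25.5 CPM per kilobase and Ccr2 at 233 ± 23.0 CPM per kilobase, with overlapping ranges. Cxcr4 (34.3 CPM per kilobase) and Cx3cr1 (27.1) also overlapped, and Cmklr1 (4.92), Cxcr3 (1.77), Cxcr6 (1.27) and Ccr6 (0.0598) stood lower, of which Cxcr3 and Cxcr6 overlapped. In WT matIMs, Ccrl2 remained first at 409 ± 78.2 CPM per kilobase and Ccr6, still last, had reached 1.47. Cmklr1, Cxcr6, Cxcr3 and Ccr6 lay between 2.50 and 1.47 CPM per kilobase there, and each overlapped the next. Summed per kilobase, the 9 receptors reached 1261 ± 12.9 CPM in WT moMs, 1187 ± 66.2 CPM in the transitional cells and 678 ± 73.5 CPM in WT matIMs. Ccrl2 made up 56.7%, 70.4% and 60.0% of that sum in WT moMs, tnsIMs and matIMs, and 55.9%, 70.7% and 60.1% in the Ezr-KOm populations.

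**Figure D1:**
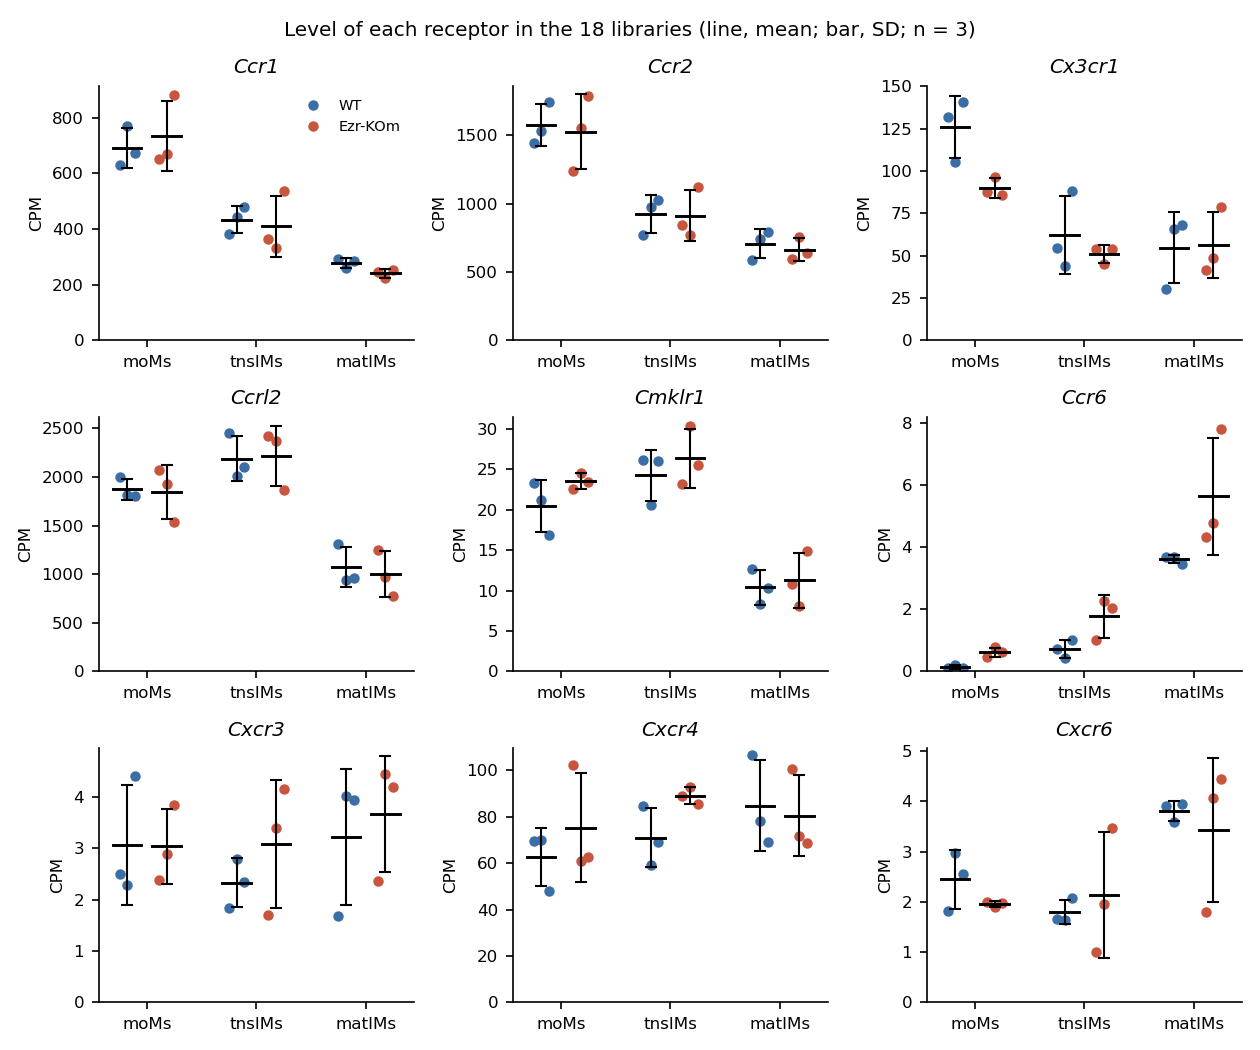
Level of each of the 9 receptors in CPM (linear axes from 0, a separate scale per gene) in the 18 libraries, by population (horizontal axis) and genotype (colour). Points are libraries, lines are means and bars are SD (n = 3). Ccr1 and Ccr2 step down from moMs to matIMs, Ccrl2 and Cmklr1 are lowest in matIMs, and Ccr6 climbs from 0.114 to 0.207 CPM in WT moMs to 3.46 to 3.68 CPM in WT matIMs.

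Between WT moMs and matIMs, 6 of the 9 members passed the test, Ccr6 upwards and Ccr1, Ccr2, Cx3cr1, Ccrl2 and Cmklr1 downwards. Cxcr3, Cxcr4 and Cxcr6 did not pass. Tests were two-sided quasi-likelihood F-tests of edgeR, and a gene was called at a Benjamini-Hochberg adjusted p under 0.05 over all genes tested, which 24.8% of all genes reached in this contrast (13.4% higher and 11.4% lower). From WT moMs to tnsIMs 4 members were called (Ccr6 higher, Ccr1, Ccr2 and Cx3cr1 lower), against 21.6% of all genes (13% higher, 8.61% lower). From WT tnsIMs to matIMs 4 were called again (Ccr6 higher, Ccr1, Ccrl2 and Cmklr1 lower), against 18.5% of all genes (8.32% higher, 10.2% lower). The median log2 fold change of the members between WT matIMs and moMs was -0.80, against 0.01 over all genes tested.

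In Ezr-KOm cells the same contrasts called 3 members from moMs to tnsIMs (Ccr6 higher, Ccr1 and Ccr2 lower), against 14.3% of all genes (9.23% higher, 5.04% lower). Between tnsIMs and matIMs 4 were called (Ccr6 higher, Ccr1, Ccrl2 and Cmklr1 lower), against 18.2% (8.37% higher, 9.85% lower). Between moMs and matIMs 5 were called (Ccr6 higher, Ccr1, Ccr2, Ccrl2 and Cmklr1 lower), against 23.3% (12.5% higher, 10.7% lower). All 12 calls in Ezr-KOm cells were also made in WT cells in the same direction.

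**Figure D2:**
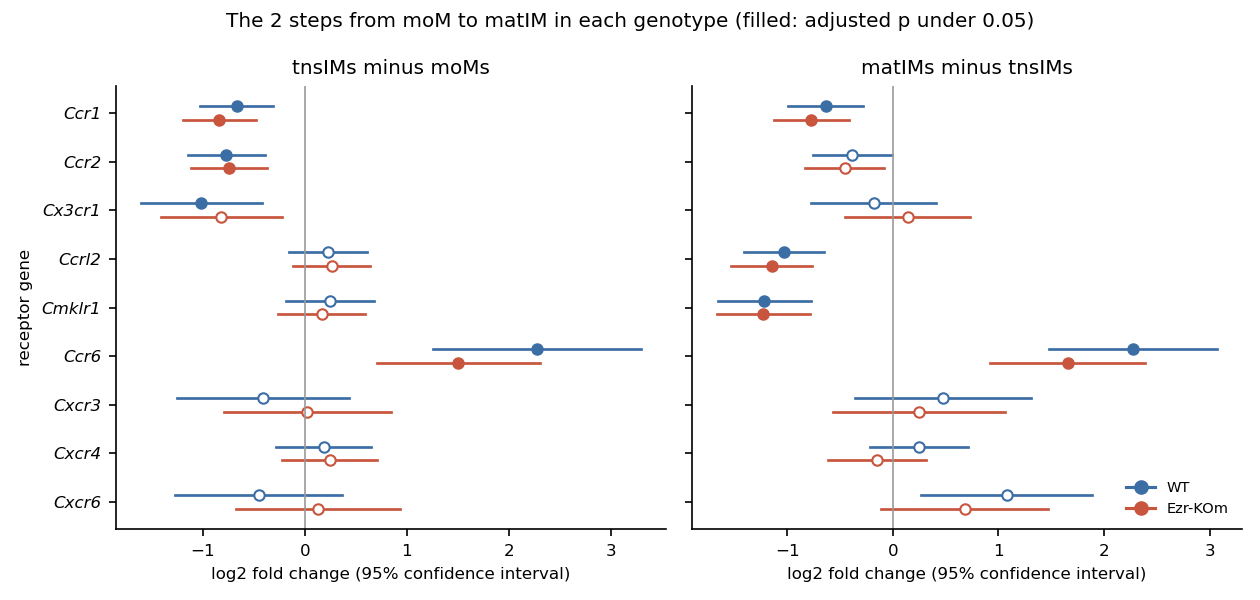
Log2 fold change of each receptor (vertical axis) from moMs to tnsIMs (left) and from tnsIMs to matIMs (right), with 95% confidence intervals, in WT and Ezr-KOm cells (3 libraries per group). Filled points have an adjusted p under 0.05. Ccr1 is below 0 and Ccr6 above 0 at both steps, whereas Ccrl2 and Cmklr1 are called only at the second step in either genotype.

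Ccr2, the receptor of Ccl2, fell at the entry into the transitional state. It was at 1443, 1534 and 1746 CPM in the 3 WT moM libraries, at 767, 973 and 1030 CPM in tnsIMs and at 588, 740 and 792 CPM in matIMs. The moM libraries lay above all others, and the ranges of tnsIMs and matIMs overlapped. The first step was called (log2 fold change -0.77, SE 0.179, adjusted p = 0.00462) and the second was not (-0.39, SE 0.179, adjusted p = 0.163). The adjusted p of the second ranged from 0.0323 to 0.344 over 27 alternative fits and passed in 2. In Ezr-KOm cells Ccr2 was at 1242, 1550 and 1786 CPM in moMs, at 843, 767 and 1123 CPM in tnsIMs and at 592, 757 and 641 CPM in matIMs. The steps there were -0.74 (SE 0.179, adjusted p = 0.00776) and -0.46 (SE 0.179, adjusted p = 0.089). Without Ezr-KOm moM replicate 3 the first of these had an adjusted p of 0.0513, and without Ezr-KOm moM replicate 1 the second had one of 0.0478.

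Ccr1, a receptor of several inflammatory CC chemokines such as Ccl3, Ccl5, Ccl6 and Ccl9, fell at both steps. Its WT values were 629, 771 and 672 CPM in moMs, 381, 441 and 480 CPM in tnsIMs and 293, 259 and 286 CPM in matIMs. No library of one population overlapped with those of the next. The first step was -0.67 (SE 0.171, adjusted p = 0.00848) and the second -0.64 (SE 0.171, adjusted p = 0.0121), which amounted to a 2.47-fold lower level in matIMs than in moMs. In Ezr-KOm cells Ccr1 was at 652, 670 and 881 CPM in moMs, at 363, 332 and 536 CPM in tnsIMs and at 247, 223 and 251 CPM in matIMs. The groups again did not overlap, and the steps were -0.84 (adjusted p = 0.00237) and -0.77 (adjusted p = 0.00308), with a SE of 0.171 each.

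Cx3cr1 fell at the first step in WT cells and was not called at the second. It was at 132, 106 and 141 CPM in WT moMs, at 54.3, 44.1 and 88.1 CPM in tnsIMs and at 30.6, 65.9 and 68.0 CPM in matIMs. The moM libraries were the highest, and tnsIMs and matIMs overlapped. The first step was -1.02 (SE 0.284, adjusted p = 0.015) and the second -0.18 (SE 0.283, adjusted p = 0.75). Without WT tnsIM replicate 2 the first step was -0.81 with an adjusted p of 0.0748. Ezr-KOm libraries held 87.5, 96.7 and 85.9 CPM in moMs, 53.9, 45.0 and 54.2 CPM in tnsIMs and 41.5, 48.7 and 78.5 CPM in matIMs. The Ezr-KOm moM libraries lay above the other Ezr-KOm libraries, but the first step was not called (-0.82, SE 0.283, adjusted p = 0.062, edgeR). That adjusted p ranged from 0.0177 to 0.195 over 27 alternative fits, and passed in 7 of them. All these mice carry Cre in the Cx3cr1 locus on a number of alleles that the labels do not give, so the level of the intact transcript cannot be told apart from that of the modified locus.

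The chemerin receptors Ccrl2 and Cmklr1 shared a pattern, not called from moMs to tnsIMs and lower in matIMs. Ccrl2 was at 1998, 1818 and 1800 CPM in WT moMs, at 2452, 2015 and 2103 CPM in tnsIMs and at 1308, 945 and 963 CPM in matIMs. The tnsIM libraries lay just above the moM libraries without overlap (log2 fold change 0.23, 95% confidence interval -0.152 to 0.605, adjusted p = 0.406), and all matIM libraries lay below both. The fall at the second step was 2.04-fold (log2 fold change -1.03, SE 0.182, adjusted p = 0.00043). In Ezr-KOm cells Ccrl2 was at 2074, 1931 and 1536 CPM in moMs, 2424, 2372 and 1866 CPM in tnsIMs and 1253, 971 and 780 CPM in matIMs. The Ezr-KOm matIM libraries were again the lowest, and the second step was -1.15 (SE 0.183, adjusted p = 0.000159).

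Cmklr1, which signals on chemerin binding, was at 23.3, 21.2 and 16.9 CPM in WT moMs, 26.1, 20.6 and 26.1 CPM in tnsIMs and 12.7, 8.33 and 10.3 CPM in matIMs. The first pair of populations overlapped and the matIM libraries lay below both. The second step was -1.22 (SE 0.211, adjusted p = 0.000343) in WT cells and -1.23 (SE 0.209, adjusted p = 0.000316) in Ezr-KOm cells. Ezr-KOm values were 22.6 to 24.6 CPM in moMs, 23.2 to 30.4 CPM in tnsIMs and 8.15 to 14.9 CPM in matIMs. Over the 18 libraries, which share population and genotype, Pearson's r of log2 CPM between Ccrl2 and Cmklr1 was 0.863. Their shared ligand chemerin, encoded by Rarres2, was highest in tnsIMs, rising in WT cells from 0.682 ± 0.351 CPM in moMs to 3.92 ± 1.78 CPM in tnsIMs before a level of 0.389 ± 0.167 CPM (SD, n = 3) in matIMs. The Rarres2 steps were 2.52 (SE 0.494, adjusted p = 0.00115) and -3.31 (SE 0.518, adjusted p = 0.000133).

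Ccr6, the receptor of Ccl20, was the member with the largest change between WT moMs and matIMs, and the only one of the 9 called upwards. WT moM libraries held 2, 5 and 3 Ccr6 counts, or 0.114, 0.207 and 0.118 CPM. WT tnsIMs held 17, 7 and 26 counts (0.709, 0.444 and 1.02 CPM) and WT matIMs 83, 86 and 93 counts (3.68, 3.67 and 3.46 CPM). The 3 populations did not overlap, and the matIM libraries were close to each other. The steps were 2.28 (SE 0.488, 95% confidence interval 1.26 to 3.30, adjusted p = 0.00243) and 2.28 (SE 0.379, adjusted p = 0.000243). The level in matIMs was 23.5-fold that in moMs (log2 fold change 4.56, 95% confidence interval 3.59 to 5.52, adjusted p = 5.98e-07), against moM libraries at or near the floor of 3 counts.

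Ezr-KOm moMs held 11, 20 and 14 Ccr6 counts (0.479, 0.771 and 0.617 CPM), tnsIMs 24, 114 and 48 counts (0.997, 2.27 and 2.03 CPM) and matIMs 121, 139 and 186 counts (4.34, 4.78 and 7.80 CPM). These populations did not overlap either. The steps were 1.51 (SE 0.381, adjusted p = 0.0108) and 1.66 (SE 0.351, adjusted p = 0.00214), and the level in matIMs was 8.96-fold that in moMs (3.16, SE 0.387, adjusted p = 6.51e-06). Without Ezr-KOm tnsIM replicate 2, the deepest library, the first of these steps was 1.27 with an adjusted p of 0.0637.

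Markers of cell types that use Ccr6 moved with it along maturation. The summed level of 8 B cell markers was 12.1 to 17.9 CPM in WT moMs, 66.8 to 98.9 CPM in tnsIMs and 190 to 269 CPM in matIMs. All 8 were higher in WT matIMs than in moMs, against 13.4% of all genes. In the Ezr-KOm populations the sum was 12.7 to 18.8, 65.8 to 142 and 127 to 299 CPM. At most 3 counts per library were held by 1 of the 8 in WT moMs and by 1 in Ezr-KOm moMs, there Pax5 at 0. The dendritic cell markers rose to 5190 to 5590 CPM in Ezr-KOm matIMs from 127 to 167 CPM in Ezr-KOm moMs. The methods place the sorted cells in the CD11c- fraction, as given above, and how far that gate kept out dendritic cells was not tested. The part of these markers' cells in the Ccr6 counts was not tested.

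**Figure D3:**
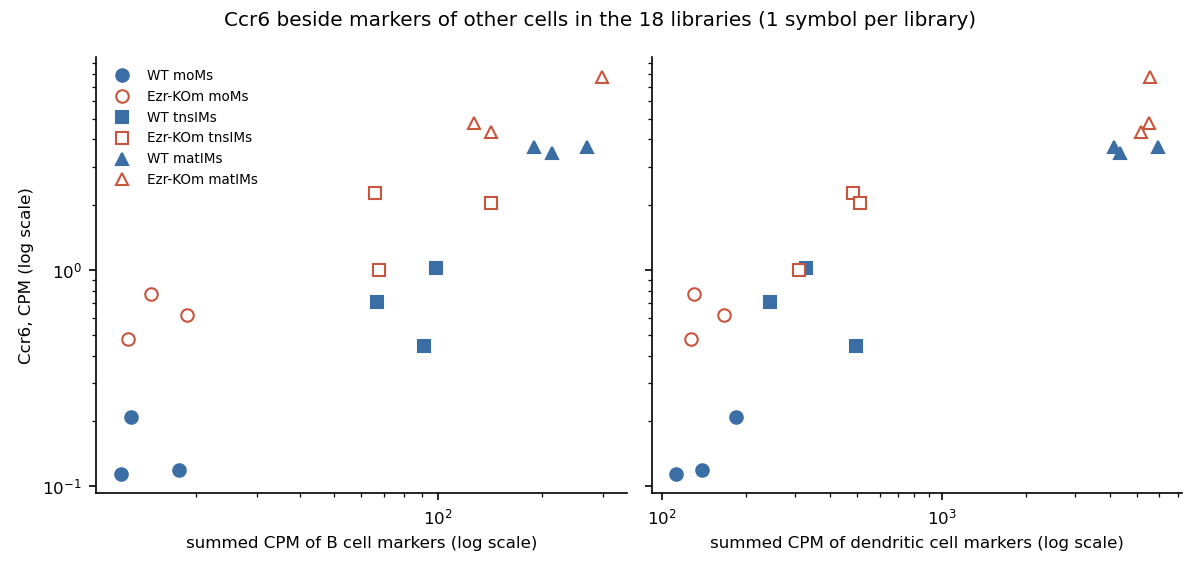
Ccr6 level in CPM (vertical, log scale) against the summed CPM of 8 B cell markers (left) and 9 dendritic cell markers (right, both log scale) in the 18 libraries, 1 symbol per library by population and genotype. In WT libraries, B cell marker sums of 12.1 to 17.9 CPM go with Ccr6 at 0.114 to 0.207 CPM in moMs and sums of 190 to 269 CPM with 3.46 to 3.68 CPM in matIMs. Ezr-KOm moMs overlap WT moMs in both marker sums, with Ccr6 at 0.479 to 0.771 CPM.

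Of the receptors that did not pass at any step, Cxcr6, which binds membrane-bound Cxcl16, came nearest. It was at 1.82, 2.98 and 2.56 CPM in WT moMs, 1.67, 1.65 and 2.08 CPM in tnsIMs and 3.90, 3.59 and 3.95 CPM in matIMs. The WT matIM libraries lay above all other WT libraries. The second step was 2.11-fold (log2 fold change 1.08, 95% confidence interval 0.269 to 1.89, adjusted p = 0.0602, edgeR). It met the study's rule of an unadjusted p under 0.05 with a log2 fold change beyond 0.75, as did 19.6% of all genes in this contrast. Its adjusted p ranged from 0.0192 to 0.152 over 27 alternative fits and passed in 7. In Ezr-KOm cells Cxcr6 was at 2.00, 1.89 and 1.98 CPM in moMs, 0.997, 1.96 and 3.48 CPM in tnsIMs and 1.79, 4.06 and 4.44 CPM in matIMs, with overlapping groups. Cxcr6 counts per library were 24 to 118, and Fyco1 overlaps it as given above.

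Cxcr4, the Cxcl12 receptor that retains leukocytes in bone marrow, was at 69.5, 70.1 and 48.2 CPM in WT moMs, 84.7, 59.2 and 69.3 CPM in tnsIMs and 107, 78.1 and 69.2 CPM in matIMs. The groups overlapped, and the difference between WT matIMs and moMs was 0.44 (95% confidence interval -0.029 to 0.902, adjusted p = 0.171). That adjusted p ranged from 0.0404 to 0.641 over 27 alternative fits and passed in 2. In Ezr-KOm cells it ranged from 60.9 to 102 CPM in moMs, 85.4 to 92.7 CPM in tnsIMs and 68.8 to 101 CPM in matIMs. Cxcr3, the receptor of the interferon-induced Cxcl9, Cxcl10 and Cxcl11, was at 1.68 to 4.44 CPM in all 18 libraries, with counts of 38 to 170. Its WT matIM to moM difference was 0.07 (95% confidence interval -0.755 to 0.89, adjusted p = 0.928), an interval that leaves room for changes of well over 1.5-fold. The 15 T and NK cell markers, cells in which Cxcr3 and Cxcr6 are well known, summed to 67.5 to 131 CPM over all libraries.

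The question of the genotype comparison was whether loss of ezrin in these cells moved the receptors. Within single populations, 0 of 9 members were called in moMs, 0 in tnsIMs and 0 in matIMs by edgeR, against 0.171%, 0.164% and 0.152% of all genes. DESeq2 also called 0 in each. An unadjusted p under 0.05 was reached by 1, 1 and 0 members in edgeR, Ccr6 in both cases, against 3.74%, 3.24% and 3.84% of all genes. Averaged over the 3 populations, 1 member was called by edgeR, Ccr6 upwards, against 0.854% of all genes (0.43% higher and 0.424% lower). DESeq2 also called 1, Ccr6 upwards, among 234 genes that it called in this contrast. The other 8 had mean log2 fold changes of -0.25 (Cx3cr1, 95% confidence interval -0.587 to 0.0959) to 0.19 (Cxcr3, -0.281 to 0.67). The intervals were narrowest for the abundant receptors, with -0.276 to 0.135 for Ccr1, -0.268 to 0.164 for Ccr2 and -0.251 to 0.186 for Ccrl2.

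**Figure D4:**
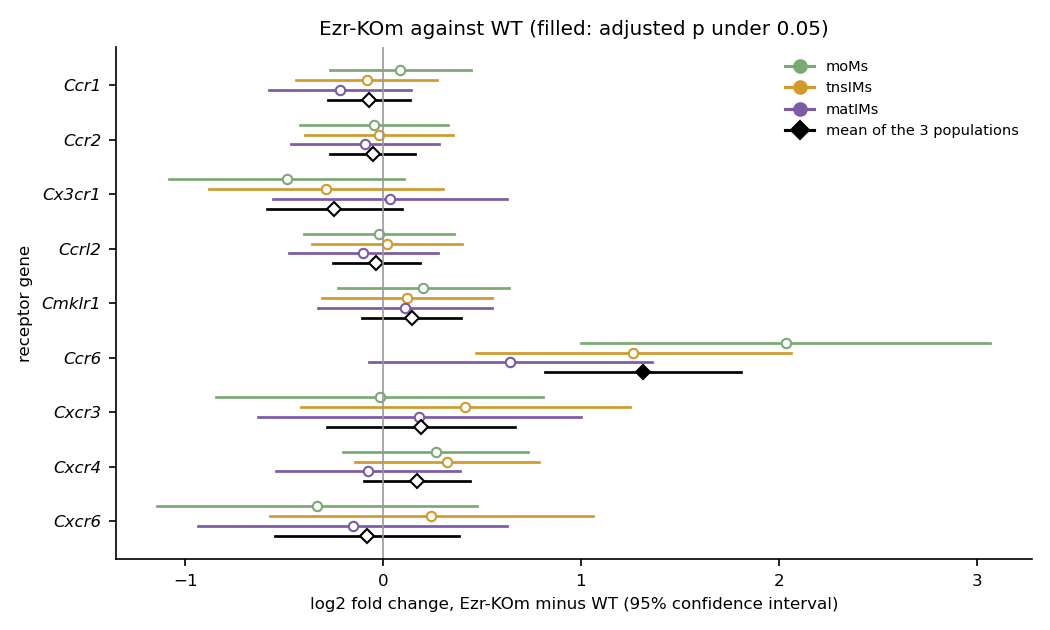
Log2 fold change of each receptor between Ezr-KOm and WT cells (horizontal axis, 95% confidence intervals) in moMs, tnsIMs and matIMs (circles, 3 against 3 libraries) and as their mean (diamonds). Filled symbols have an adjusted p under 0.05. Only the mean of Ccr6 (1.31, interval 0.819 to 1.81) is filled.

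The Ccr6 difference between Ezr-KOm and WT libraries was 2.04 on the log2 scale in moMs (SE 0.492, 95% confidence interval 1.00 to 3.07, adjusted p = 0.201, edgeR). All Ezr-KOm moM libraries (11 to 20 counts) lay above the WT ones (2 to 5 counts). In tnsIMs the difference was 1.26 (SE 0.378, adjusted p = 0.707, edgeR), and the lowest Ezr-KOm library, at 0.997 CPM, lay below the highest WT library, at 1.02 CPM. In matIMs it was 0.64 (SE 0.341, 95% confidence interval -0.0725 to 1.36, adjusted p = 1, edgeR), with all Ezr-KOm libraries above the WT ones. The moM and tnsIM differences met the study's rule, as did 2.51% and 1.83% of all genes.

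The mean Ccr6 difference over the populations was 2.49-fold (log2 fold change 1.31, SE 0.236, 95% confidence interval 0.819 to 1.81, adjusted p = 0.00634, edgeR). This fit treats the 18 libraries as independent. When the libraries of 1 genotype and replicate number were joined, a choice made after seeing the data, the call was lost. With their counts summed the difference was 0.80 (adjusted p = 0.848, edgeR), and with their values averaged it was 1.14 (adjusted p = 0.263). Over all genes, the main fit called 135 in this contrast and each joined fit called 30. No joined fit is given for the marker genes that follow. Of 8 B cell markers, 0 were called in this contrast by edgeR, 0 had an unadjusted p under 0.05 and DESeq2 called 0, with a median log2 fold change of 0.163. In moMs alone that median was 0.531, against 0.00225 over all genes, at sums of 12.1 to 17.9 CPM in WT and 12.7 to 18.8 CPM in Ezr-KOm libraries. Of the 9 dendritic cell markers 0 were called by edgeR, 1 had an unadjusted p under 0.05 and 1 was called by DESeq2. Of 7 fibroblast markers 1 was called higher (Pdgfra, 1.25, SE 0.193, adjusted p = 0.00168), against 0.43% of all genes. An unadjusted p under 0.05 was reached by 5 of them. For unadjusted counts of any gene list in the mean genotype contrast no share over all genes is given, so they are not read as results. DESeq2 called 1 higher, and the median log2 fold change of the list was 0.54, against 0.00271 over all genes. The fibroblast marker sum in moMs was 27.3 to 41.6 CPM in WT and 50.1 to 61.8 CPM in Ezr-KOm libraries, without overlap. The part of these cells in the Ccr6 difference was not tested.

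The other members whose genotype groups did not overlap were Cx3cr1 in moMs, Cxcr4 in tnsIMs and Ccr1 in matIMs. Such separation was found in 8.52%, 5.81% and 10.1% of all genes in the respective populations. The Cx3cr1 difference between Ezr-KOm and WT moMs was -0.49 (95% confidence interval -1.08 to 0.105, adjusted p = 1, edgeR), with 85.9 to 96.7 CPM against 106 to 141 CPM in WT moMs. Cxcr4 differed by 0.32 (95% confidence interval -0.141 to 0.788) in tnsIMs and Ccr1 by -0.22 (-0.574 to 0.14) in matIMs, and neither passed.

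Whether maturation itself differed between the genotypes was tested with 27 interactions, 3 for each member. edgeR called 0 and DESeq2 called 0, and 1 had an unadjusted p under 0.05, against 0% of all genes called in each of the 3 interactions and, with an unadjusted p under 0.05, 1.47% for the step into tnsIMs, 1.7% from moMs to matIMs and 1.16% for the step out of tnsIMs. That 1 was Ccr6 between matIMs and moMs (-1.39, SE 0.598, adjusted p = 1, edgeR), the difference between a rise of 3.16 in Ezr-KOm cells and one of 4.56 in WT cells.

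Ccr6 lies near the targeted gene, so its neighbours within 0.5 Mb were read in the same contrast. The table holds 15 genes there, Ccr6 included, and 10 were tested. Rsph3a, a radial spoke gene whose start lies at -290.4 kb from that of Ccr6, was lower in Ezr-KOm cells (mean -0.99, adjusted p = 0.00381), with -0.90 in moMs, -1.11 in tnsIMs and -0.95 in matIMs. Its near-identical copy Rsph3b makes these counts uncertain. The fit treats the libraries as independent, and no fit with joined libraries is given for Rsph3a. Mpc1, a subunit of the mitochondrial pyruvate carrier 46.9 kb after the Ccr6 start, was at -0.69 (adjusted p = 0.0567, edgeR). Tagap, between Rsph3a and Fndc1, was at -0.29 (adjusted p = 0.829), and Cep43, at -70.5 kb, was at -0.26 (adjusted p = 0.238). Fndc1, with at most 23 counts per library, was at -1.20 (adjusted p = 0.574, edgeR) and E430024P14Rik at -0.52 (adjusted p = 0.71, edgeR). Rnaset2a, Sft2d1 and Gm17087 lay between -0.21 and -0.024. Ccr6 was thus the only tested gene of this window with a mean above 0. Of the 10 tested genes 2 were called, Rsph3a lower and Ccr6, which sets the window, higher, against 0.854% of all genes. Whether DNA linked to the floxed allele has a part in either difference was not tested.

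**Figure D5:**
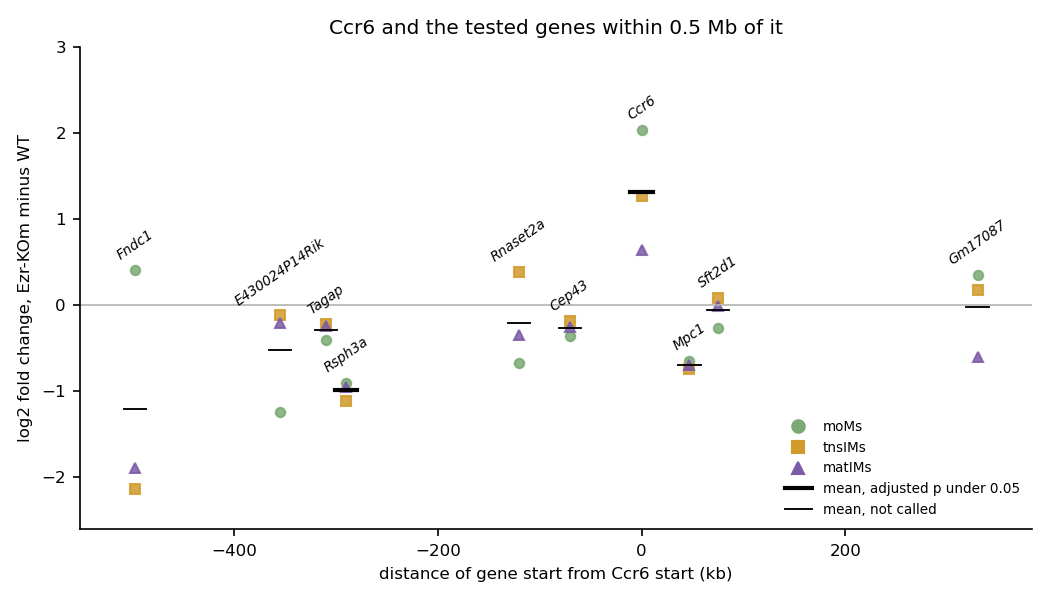
Log2 fold change between Ezr-KOm and WT cells (vertical) of the 10 tested genes within 0.5 Mb of Ccr6, by the distance of each gene's start from that of Ccr6 in kb (horizontal). Symbols are the 3 populations (3 against 3 libraries) and lines their mean, thick where the adjusted p is under 0.05. Ccr6 is above 0 in all 3 populations, whereas Rsph3a and Mpc1 are below 0 in all 3.

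The ligands of the members changed in both directions. Of 17 ligand genes, 4 were higher and 5 lower in WT matIMs than in moMs, against 13.4% and 11.4% of all genes. Those higher were Cx3cl1, the Cx3cr1 ligand (4.30, adjusted p = 9.71e-09), Ccl5 (3.37, adjusted p = 1.58e-05), Ccl8 (2.56) and Cxcl16, the Cxcr6 ligand (1.54, adjusted p = 8.46e-07). Those lower were Ccl2 (-1.39), Ccl6 (-1.29), Ccl7 (-1.02), Ccl12 (-0.92) and Ccl9 (-0.65), which act through Ccr1 or Ccr2. Ccl20, the ligand of Ccr6, was highest in tnsIMs, at 3.32 ± 0.515 CPM against 0.179 ± 0.243 CPM in WT moMs and 0.315 ± 0.238 CPM in WT matIMs (SD, n = 3). Its steps were 4.34 (adjusted p = 0.000882) and -3.40 (adjusted p = 0.00279).

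Cxcl12, the Cxcr4 ligand, was likewise highest in tnsIMs (14.2 ± 1.73 CPM, against 4.39 ± 1.42 CPM in WT moMs and 2.72 ± 0.477 CPM in WT matIMs), with steps of 1.69 (adjusted p = 0.000336) and -2.38 (adjusted p = 1.07e-05). Markers of other lung cells had this shape too. The summed level of 8 endothelial cell markers was 106 to 136 CPM in WT moMs, 314 to 534 CPM in tnsIMs and 79.7 to 108 CPM in matIMs, with all 8 called at both steps. The 7 fibroblast markers summed to 27.3 to 41.6, 101 to 111 and 16.2 to 28.5 CPM, with 5 of 7 called at each step, against 21.6% and 18.5% of all genes. The part of such cells in the tnsIM values of Ccl20, Cxcl12 and Rarres2 was not tested. Between genotypes, edgeR called 0 of the 17 ligands in the mean contrast, 2 had an unadjusted p under 0.05 and DESeq2 called 0.

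Among 17 further chemokine receptor genes, 16 were in the table and 12 were tested, of which 4 were higher and 1 was lower in WT matIMs than in moMs. The shares over all genes were 13.4% higher and 11.4% lower. Ccr7, the receptor that leads maturing dendritic cells to lymph nodes, exceeded all members in its change, from 13.5 ± 3.36 CPM in WT moMs to 108 ± 18.1 CPM in tnsIMs and 1815 ± 292 CPM in matIMs (7.08, adjusted p = 1.62e-11). Cxcr5, the B cell follicle receptor, went from 0.749 to 5.30 and 34.1 CPM (5.56, adjusted p = 3.11e-08). The dendritic cell and B cell markers given above rose along the same populations. The part of such cells in the Ccr7 and Cxcr5 values was not tested. Ccr10 went from 0 to 1 counts per WT moM library to 28 to 44 counts in matIMs, and the neutrophil receptor Cxcr2 was also higher (1.87, adjusted p = 0.0179). The scavenging receptor Ackr3 was lower (-1.50, adjusted p = 0.0308) after a peak of 13.7 ± 4.48 CPM in WT tnsIMs, and Ackr1 (2.04 to 4.23 CPM) and Ackr2 (4.67 to 9.87 CPM) were highest there as well, as were the endothelial cell markers given above, whose part in these values was not tested. In the mean genotype contrast edgeR called 0 of the 12, 1 had an unadjusted p under 0.05 and DESeq2 called 0.

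Of 30 genes that carry or end the signal of these receptors, 4 were higher and 7 lower in WT matIMs than in moMs. Of all genes tested, 13.4% were higher and 11.4% lower. The largest fall was that of Grk5, a kinase that desensitizes receptors (-2.26, adjusted p = 9.14e-08), followed by Rgs14 (-0.74), the Gi subunit gene Gng2 (-0.72) and Pik3cg (-0.69), the PI3K isoform downstream of Gi. Rgs1, which shortens Gi signals, was higher (1.94), as were Nup85 (0.71), the beta-arrestin gene Arrb2 (0.56) and Plcb2 (0.46). In the mean genotype contrast edgeR called 0 of the 30, 1 had an unadjusted p under 0.05 and DESeq2 called 0.

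Some chemoattractant receptors outside the chemokine family fell too. Of 10 tested, 0 were higher and 4 were lower in WT matIMs than in moMs, against 13.4% and 11.4% of all genes. The 4 were C5ar2 (-2.23), C5ar1 (-1.50), Fpr2 (-1.03) and C3ar1 (-0.73). C5ar2, the second receptor of complement C5a, was also lower in Ezr-KOm cells (mean -1.26, SE 0.211, adjusted p = 0.00356, edgeR). That fit treats the libraries as independent, and no fit with joined libraries is given for C5ar2. DESeq2 called 1 of the 10 lower and 1 higher in the mean genotype contrast, in which it called 234 of all genes. Fpr2, a formyl peptide receptor, was at 0.50 in it (SE 0.118, adjusted p = 0.0545, edgeR), with 99.8 ± 12.2 CPM in Ezr-KOm moMs against 65.4 ± 12.0 CPM in WT moMs. The group means of C5ar2 along maturation were 11.4, 7.18 and 2.40 CPM in WT cells, against 5.15, 3.42 and 0.791 CPM in Ezr-KOm cells.

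The genes whose log2 CPM followed each member most closely over the 18 libraries were listed by Pearson's r, as a description, since the libraries share population, genotype and possibly mice. Ccr2 was closest to Rab31 (0.98), Zfyve9 (0.978) and P2ry1 (0.978), and Ccr1 to Hpse (0.972), Chil3 (0.972) and Gm46637 (0.962). Ccrl2 was closest to Prdx5 (0.97), Lpcat2 (0.953) and Rcan1 (0.952), and Cmklr1 to Ier3 (0.942), Icam2 (0.931) and Chst1 (0.915). Ccr6 was closest to Scin (0.95), Fgfr1 (0.944) and Il7r (0.943), and Cx3cr1 to Rab27a (0.961), Cyp2ab1 (0.923) and Appl2 (0.908). The receptors that did not pass had lower values, with Cxcr4 closest to Tnfrsf12a (0.89), Cxcr3 to Sart3 (0.879) and Cxcr6 to Trpv2 (0.869). Between members, r was 0.947 for Ccr1 and Ccr2, 0.79 for Ccr2 and Cx3cr1 and -0.849 for Ccr1 and Ccr6.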

How the data were processed

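The authors deposited whole-number read counts per gene, not normalized, for 18 libraries made with a low-input full-length kit and sequenced as read pairs. Per the labels and methods, reads were checked with FastQC and aligned to GRCm39 with STAR 2.7.9a, which also counted them. The strand column used is not given in the sources used here, so counts of overlapping genes are uncertain. 0 columns belonged to other samples.

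The fit used edgeR 4.0.16 (R 4.3.3). Genes were kept by filterByExpr (smallest count 10), scaled with TMM, and fitted in 1 quasi-likelihood model of 6 groups with two-sided F-tests. Adjusted p-values cover all 15811 genes tested. Replicates are separate libraries, and p-values measure the spread between them. Confidence intervals are 95%. CPM values use TMM-scaled totals, and levels between genes are CPM per kilobase of exon in a later Gencode annotation. Counts of these 15811 genes were also simulated for WT matIMs against moMs, with libraries drawn independently and 200 genes changed. There edgeR recovered 41% of changes of log2 1 and 79% of log2 2, and 1.64% of its calls fell on unchanged genes. DESeq2 recovered 54% and 82%, and 7.48% of its calls fell on unchanged genes. The real contrast called 24.8% of all genes, so these shares are not error rates of the calls reported here.

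Libraries of the same replicate number from the WT and Ezr-KOm groups of 1 population deviated together (r 0.102 to 0.316, against at most 0.0508 for different numbers). That is a hint of pairing from the data. The main fit used no pairing, and replicate numbers entered only the alternative fits. Alternatives were DESeq2 1.42.0, other scalings and filters, robust estimation, subsets of libraries, replicate blocks, each library left out and, added after seeing the data, sums and means per genotype and replicate number.

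Members and gene lists were chosen with earlier results of these data known, and the endothelial and fibroblast lists were added last, after those values were seen. Named were all members, up to 4 genes per list and direction with the largest WT matIM to moM change among those called, genes needed to read a member, other chemokine receptors above 3 counts, the 3 genes most like each member, genes within 0.5 Mb of Ccr6, and Ezr. Rsph3a, C5ar2, Fpr2 and Pdgfra in the genotype contrast, and Ccl20, Rarres2, Cxcl12 and Ccl9, were picked after their values were seen. Sequences are from RefSeq tables of GRCm38.p6 and were matched to GRCm39.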

Additional observations from a re-analysis of the deposited data

How the results depend on the processing

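Of 1870 recomputed values of the members, 1809 kept their direction and side of the threshold, 29 newly passed, 5 no longer passed and 27 changed sign. The 47 further values, genotype differences within a population and interactions given only as ranges, changed sign in 77 of 1222 recomputations and passed in 0. In the mean genotype contrast 1 member was called. The count was 0 with at least 10 counts in every library, a filter that removes Ccr6, and 0 with sums and 0 with means per genotype and replicate number. In the other fits the adjusted p of Ccr6 was 0.00016 to 0.0201. The 14 calls in WT and 12 in Ezr-KOm maturation became 17 and 15 with a replicate block and 15 and 13 with DESeq2. Calls over all genes rose too in each maturation contrast. From WT moMs to matIMs they were 3926 in the main fit, 4883 with the block and 4337 with DESeq2. In Ezr-KOm cells they were 3679, 4625 and 4150. The added member calls are therefore not read as particular to the members. Under the filter that removes Ccr6 the member calls were 11 and 9, and no count over all genes is given for it. Between populations of 1 genotype, deviations of same-numbered libraries correlated at 0.0905 to 0.397, against at most 0.0316 for different numbers, which is a hint of pairing from the data and not from the design. With the block, Ccr2 between WT tnsIMs and matIMs (adjusted p = 0.0323, edgeR) and Cxcr4 between WT moMs and matIMs (0.0404) passed. The replicate block, which pairs the genotypes by number, gave the mean Ccr6 difference an adjusted p of 0.00348 (edgeR) and changed no genotype call. It still counts the 3 populations of 1 genotype and number as separate libraries. Thus it does not address the loss of the call by sums and means. Leaving out each library in turn gave 13 to 15 calls in WT and 11 to 14 in Ezr-KOm maturation, 0 to 0 within populations, 1 to 1 in the mean contrast and 0 to 0 interactions. By step it gave 3 to 4, 4 to 5 and 6 to 6 calls in WT and 2 to 4, 4 to 5 and 5 to 6 in Ezr-KOm cells.

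Values that changed sign were all small and not called, and their causes were not tested. With the block, Cxcr3 between Ezr-KOm tnsIMs and moMs was -0.029, and -0.032 with a block for genotype and number together, where Cxcr6 was -0.028. The mean Ccrl2 genotype difference was 0.016 by sums. With 1 library left out, Cx3cr1 between matIMs and tnsIMs ranged from -0.40 to 0.10 in WT and -0.21 to 0.28 in Ezr-KOm, and Cxcr3 from -0.15 to 0.40 between WT matIMs and moMs. In Ezr-KOm cells, Cxcr3 ranged from -0.21 to 0.29 and Cxcr6 from -0.35 to 0.44 between tnsIMs and moMs, Cxcr3 from -0.048 to 0.46 between matIMs and tnsIMs, and Cxcr4 from -0.13 to 0.40 between matIMs and moMs. The mean genotype differences of Ccrl2 and Cxcr6 ranged from -0.094 to 0.035 and from -0.24 to 0.025. The median of all genes was 0.108 with upper-quartile scaling in WT tnsIMs against moMs (0.0149 with TMM). With library totals it was 0.111 in WT and 0.132 in Ezr-KOm matIMs against moMs (0.0132 and 0.00674 with TMM). No member changed sign under these scalings in those contrasts. Depth limits Ccr6 in WT moMs most, at 2 to 5 counts.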
